A study of Mus musculus with 10 samples.

Results

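Expression of 9 transcription factor genes that set or mark the macrophage lineage was followed in tumour-associated macrophages: Spi1, Maf, Irf8, Cebpa, Cebpb, Klf2, Klf4, Id3 and Runx1. They were chosen by gene symbol, and 8 of the 9 were analysed, among 46957 loci in all. Irf8 was not analysed here. The macrophages came from tumours of 4T1, a mouse mammary carcinoma line, placed in the mammary fat pad of the BALB/cJ strain. A group of mice received PBS as vehicle. The other received JHU083, a prodrug that releases the glutamine antagonist 6-diazo-5-oxo-L-norleucine, at a dose of 1 mg/kg on days 7 to 13, and all tumours were harvested on day 14. Live cells (CD45+, 7AAD-) with CD11b and F4/80 and without CD8, Ly6C or Ly6G were sorted, and RNA was sequenced from 5 samples of each group. The labels name 1 tumour line and 1 strain, and do not give the sex or age of the mice or say whether a sample is 1 mouse or a pool. If the samples are not separate mice, the p-values measure only the spread between these samples.

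Spi1 encodes PU.1, the ETS factor without which macrophages do not form, and Runx1 acts upstream of it in blood development. C/EBP alpha (Cebpa) works beside PU.1 in committing progenitors to the myeloid line, while C/EBP beta (Cebpb) is better known for inflammatory and alternative activation genes. MAF has been linked to restraint of self-renewal in mature macrophages. KLF2 and KLF4 are zinc finger factors; KLF4 has been linked to monocyte formation and alternative activation, and KLF2 to quiescence and low inflammatory tone. ID3 has no DNA-binding region of its own and acts by holding E proteins away from DNA.

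The libraries held 11147870 to 15740701 fragments, and 3 fragments correspond to 0.191 to 0.269 CPM (counts scaled to a common library total). The 12 macrophage markers summed to 18778 to 23387 CPM in vehicle and 23833 to 31271 CPM in JHU083. Of these, 4 were higher, with the largest rise in CPM for Lyz2 (6979.5 ± 804 to 10458 ± 2243 CPM, SD, n = 5), 7 did not pass and 1, Aif1, was lower (-0.31). The call of Aif1 ended without vehicle replicate 1, 4 or 5 or JHU083 replicate 2, 4 or 5 (-0.31 to -0.25). Markers of other cells were present, and lists moved both ways with treatment. Tumour epithelial markers summed to 304 to 659.8 CPM in vehicle and 104 to 222 CPM in JHU083, and 9 of the 10 were tested and were lower. Endothelial markers, 2 of 5 tested lower and 1 higher, summed to 135 to 221 CPM in vehicle and 46 to 95 CPM in JHU083. Fibroblast markers, 5 of 7 lower, summed to 103 to 226 CPM and 25.9 to 115 CPM. Sums of 2 further lists were higher in every JHU083 sample. Lymphocyte markers went from 30.2 to 34.3 CPM to 40.6 to 58.1 CPM, mostly through Cd4 (14.7 ± 1.37 to 31.8 ± 5.98 CPM), while 8 of the 13, among them Cd3e and Cd8a, stayed under 1 CPM in every sample. Dendritic cell markers went from 11.9 to 15.2 CPM to 16.5 to 35 CPM, mostly through Cd209a (1.69 ± 0.432 to 7.24 ± 3.5 CPM). Neutrophil marker sums overlapped (98.5 to 111 CPM and 99.9 to 152 CPM), with S100a8 and S100a9 lower (-1.40 and -2.18 on the log2 scale). Of the other 4 tested neutrophil markers only Csf3r was higher (0.53). Ly6g, Camp, Ngp, Elane and Mpo were under 1 CPM in every sample. Monocyte marker sums overlapped as well (733 to 930.4 CPM and 618 to 892 CPM), with 3 of 9 tested lower, Ace the most (-2.56), and 1 higher, Chil3. The part of these cells in the results that follow was not tested. Mitochondrial transcripts took 1.53 to 2.09% of fragments in vehicle and 2.14 to 2.44% in JHU083. In 3 vehicle and 2 JHU083 samples the ribosomal loci Rn18s-rs5 and Gm42418 are listed at 0, and the comparison was repeated within those samples and within the others (2 vehicle, 3 JHU083). Cd209a (1.26) and Aif1 (-0.09) did not pass within the first set. In bulk RNA, fewer cells of a type and less RNA per cell cannot be told apart.

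**Figure D1:**
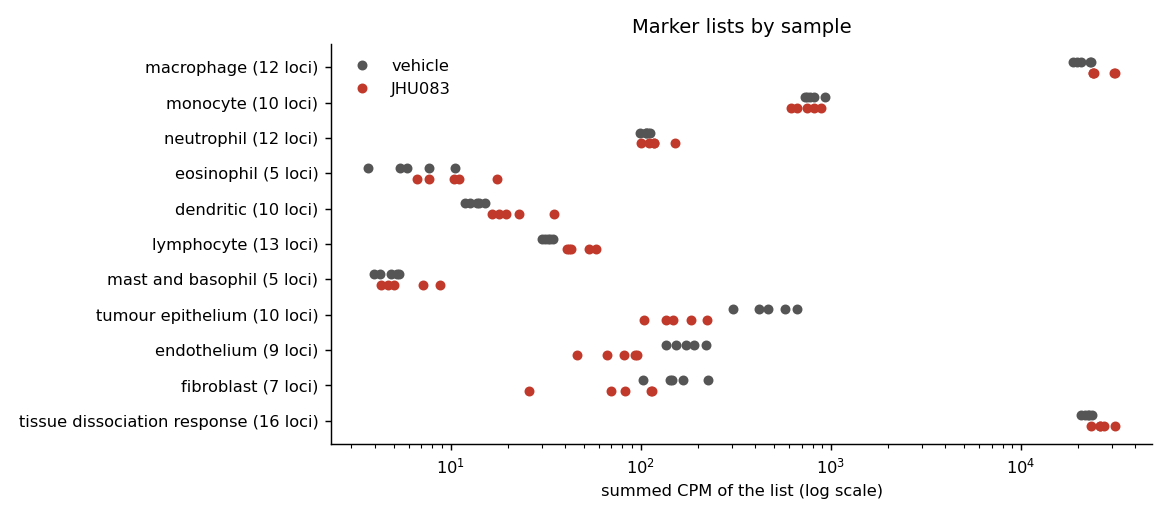
Summed CPM (log scale) of each marker list in each sample, with vehicle in grey and JHU083 in red and the number of loci in brackets. Tumour epithelial and endothelial sums are lower in all 5 JHU083 samples than in any vehicle sample, and macrophage, lymphocyte and dendritic sums are higher.

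The lineage factors did not move together. Cebpa, Klf4, Klf2 and Maf rose in JHU083, Id3 fell, and Spi1, Cebpb and Runx1 did not pass the test. All 8 genes passed the filter on low counts. By edgeR's quasi-likelihood test at an adjusted p under 0.05, 4 of 8 were higher, against 18.4% of the 12500 loci tested, and 1 of 8 was lower, against 18.3% of loci. In either direction the share over all loci was 36.7%. The median log2 fold change was 0.34 over the 8 genes and 0.01 over all tested loci. For Cebpa, Klf2, Klf4 and Id3 the CPM of the groups did not overlap, as for 22.3% of tested loci. Scaling to library size alone gave 1564 higher and 3141 lower loci in place of 2296 and 2293, with 4 lineage factors higher and 2 lower.

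**Figure D2:**
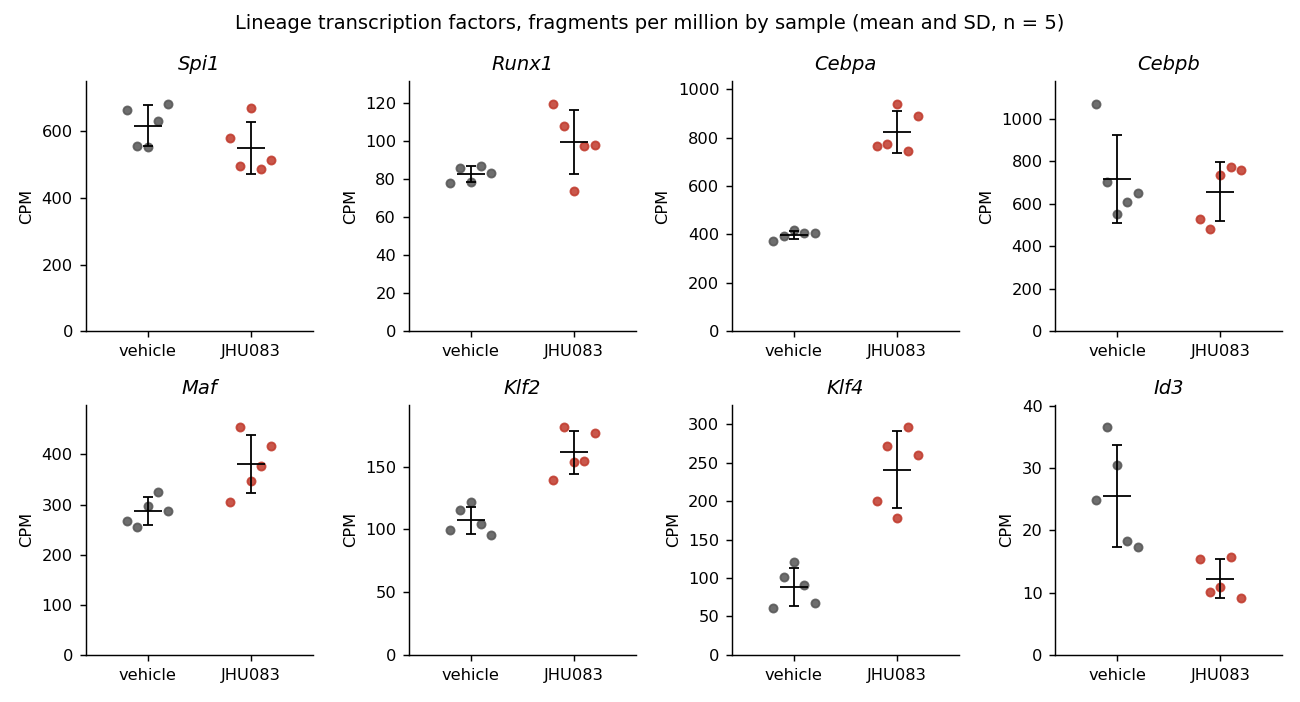
CPM of each of the 8 genes in each sample, with the mean and SD of 5 samples; each axis starts at 0. Cebpa, Klf2 and Klf4 lie higher in every JHU083 sample than in any vehicle sample, and Id3 lies lower.

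Per transcript length, Spi1 and Cebpb had the highest levels of the 8 and Id3 the lowest, in both groups. In vehicle the authors' FPKM values averaged 530.4 ± 47.6 for Spi1, 509 ± 145 for Cebpb, 152 ± 6.87 for Cebpa and 60.3 ± 6.42 for Klf2 (SD, n = 5). They averaged 51.4 ± 4.54 FPKM for Maf, 37.5 ± 16.2 for Klf4, 29.4 ± 1.88 for Runx1 and 23.8 ± 8.03 for Id3. Cebpa stood apart from both neighbours in this order, with no overlap of sample ranges. Spi1 and Cebpb overlapped, and so did each pair of neighbours from Klf2 down to Id3. In JHU083 the order changed at Klf4, which stood next below Cebpa. FPKM levels there were 489.7 ± 61.6 for Spi1, 468 ± 96.7 for Cebpb, 315 ± 31.5 for Cebpa and 107 ± 23 for Klf4. Klf2 followed at 91.1 ± 10.02 FPKM, Maf at 68.6 ± 9.79, Runx1 at 35.9 ± 6.07 and Id3 at 12.3 ± 2.86. Of these neighbours, only Cebpa and Klf4, Maf and Runx1, and Runx1 and Id3 did not overlap in JHU083. The length implied by the deposited count over FPKM differed 1.55-fold between samples for Klf4 and 1.26-fold for Id3. It differed at most 1.13-fold for the other 6 genes, so FPKM of Klf4 and Id3 also carries that difference.

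**Figure D3:**
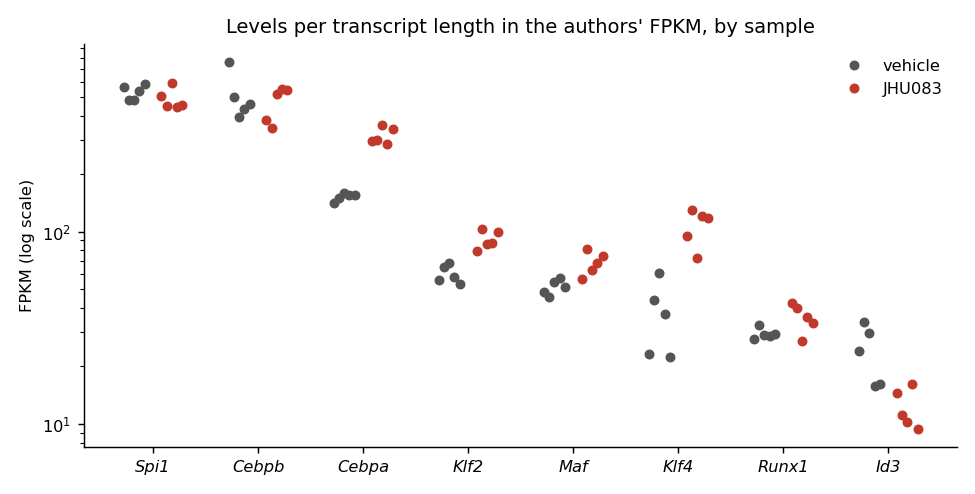
FPKM (log scale) of the 8 genes in each sample, ordered by the vehicle mean, with vehicle in grey and JHU083 in red. Cebpa lies closer to Spi1 and Cebpb in JHU083 than in vehicle, and the mean of Klf4 lies above those of Klf2 and Maf.

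Spi1 has 5 exons on the plus strand of chromosome 2 (91082390 to 91115756, GENCODE M21, GRCm38; locus XLOC_019397). It stood at 665, 557, 552, 630.1 and 683 CPM in vehicle replicates 1 to 5 and at 581, 496, 672, 486 and 514 CPM in JHU083 replicates 1 to 5. JHU083 replicates 2, 4 and 5 lay below every vehicle sample, and replicates 1 and 3 lay inside the vehicle range. The log2 fold change was -0.17 ± 0.10 (SE, edgeR adjusted p = 0.199). It reached the threshold without JHU083 replicate 3 (-0.25, adjusted p = 0.0261), with library size scaling (-0.25, adjusted p = 0.0423) and with quality weights in limma-voom (-0.23, adjusted p = 0.0285). Within the samples at 0 for the ribosomal loci it was 0.01, and within the others -0.30 (adjusted p = 0.104).

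Of 14 ETS genes listed, Spi1 included, 12 were tested, 6 were higher and 1 was lower, with a median log2 fold change of 0.18. Spic, a PU.1 relative of iron-handling macrophages, rose from 2.61 ± 0.445 CPM in vehicle to 6.26 ± 0.965 CPM in JHU083 (SD, n = 5), by 1.26 ± 0.17 as log2 fold change (SE, edgeR adjusted p = 0.000101). Elf1 and Fli1, ETS factors of many blood cells, rose by 0.59 and 0.48 (adjusted p = 0.0044 and 0.000592). Ets1, which lymphocytes and endothelial cells express, fell by 0.85 (adjusted p = 0.0235). That call ended without vehicle replicate 2 (-0.74), vehicle replicate 3 (-0.65), JHU083 replicate 1 (-0.78) or JHU083 replicate 2 (-0.77). Spib, the closest relative of Spi1, had at most 6 fragments in any sample and was not tested. Of 20 genes linked to PU.1, 5 were higher and 1 was lower, with a median of 0.14. The receptor genes Csf1r and Csf3r rose by 0.51 and 0.53 (adjusted p = 0.000632 and 0.000663), and Lyz2, the macrophage lysozyme, by 0.58 (adjusted p = 0.00852). Csf3r is also the neutrophil marker that rose, and its source was not tested. Msr1, a scavenger receptor, fell by 0.43 (adjusted p = 0.00142). Within the samples at 0 for the ribosomal loci Elf1 (0.32), Fli1 (0.42), Ets1 (-1.07) and Msr1 (-0.38) did not pass, and within the others Ets1 (-0.80) and Lyz2 (0.30) did not.

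Runx1, on the minus strand of chromosome 16 (92601466 to 92826149; XLOC_014849) with coding transcripts of 5 to 8 exons, stood at 77.7, 85.9, 78.4, 86.7 and 83.1 CPM in vehicle. In JHU083 its values were 119, 108, 73.9, 97.1 and 98 CPM. JHU083 replicates 1, 2, 4 and 5 exceeded every vehicle sample, while replicate 3 was the lowest of all 10. The log2 fold change was 0.27 ± 0.11 (SE, edgeR adjusted p = 0.0595), and without JHU083 replicate 3 it was 0.36 (adjusted p = 0.00178). Within the samples at 0 for the ribosomal loci it was 0.18 (adjusted p = 0.581), and within the others 0.36 (adjusted p = 0.0435). Of the 5 genes tested in the list of RUNX factors and partners, 0 passed in edgeR, and 1, Runx1, had an unadjusted p under 0.05. Runx1 did not pass in DESeq2 or unweighted limma-voom, and passed with quality weights in limma-voom (0.28, adjusted p = 0.0102) and with no filter on low counts in edgeR (0.27, adjusted p = 0.0494). Runx2, Runx3 and Cbfb did not pass in DESeq2 or in limma-voom, weighted or not. Runx3 averaged 219 ± 20.8 CPM without and 215 ± 27.7 CPM with JHU083 (SD, n = 5), and Runx2 6.73 ± 2.32 and 7.12 ± 2.22 CPM. Cbfb, the binding partner that RUNX factors share, had 132 ± 10.9 and 134 ± 4.86 CPM. The log2 ratio of Runx1 to Cbfb averaged -0.68 ± 0.18 without and -0.44 ± 0.21 with JHU083 (SD, n = 5; exact two-sided permutation p = 0.119, 0.149 after Benjamini-Hochberg adjustment over the 5 ratios tested), and without JHU083 replicate 3 the difference of 0.32 passed (exact permutation adjusted p = 0.0397).

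Cebpa rose with the smallest p-value of the 8 genes. It lies on the plus strand of chromosome 7 (35119293 to 35121928; XLOC_034527), where GENCODE gives coding transcripts of 1 and 2 exons. In vehicle it stood at 372, 393, 416, 407 and 404 CPM, a coefficient of variation of 4.32%. In JHU083 its values were 767, 774, 939, 745 and 888 CPM, all above every vehicle sample. The rise was 2.06-fold, or 1.05 ± 0.08 on the log2 scale (SE, edgeR adjusted p = 1.45e-06), and ranked 19 by p-value among 12500 loci. Over all tested loci, 2.1% passed the test and rose by at least 1 on the log2 scale. The value of Cebpa was 1.09 within the samples at 0 for the ribosomal loci and 1.02 within the others.

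Cebpb did not show this rise. Its single exon lies on the plus strand of chromosome 2 (167688915 to 167690418; XLOC_020129). It stood at 1069, 699.6, 550.3, 608 and 649 CPM in vehicle and at 527, 482, 733, 774 and 758 CPM in JHU083. Vehicle replicate 1 was the highest of all samples, and the other samples of the groups overlapped. The log2 fold change was -0.13 ± 0.18 (SE, edgeR adjusted p = 0.601), and without vehicle replicate 1 it was 0.06 (adjusted p = 0.771).

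Within each library, Cebpa gained on Cebpb. Their log2 ratio was -0.80 ± 0.43 in vehicle and 0.35 ± 0.28 in JHU083 (SD, n = 5). It ran from -1.52 to -0.40 in vehicle and from -0.05 to 0.68 in JHU083, without overlap. The difference of 1.16 had an exact two-sided permutation p of 0.00794, the smallest that 5 against 5 samples allow (adjusted p = 0.0132).

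**Figure D4:**
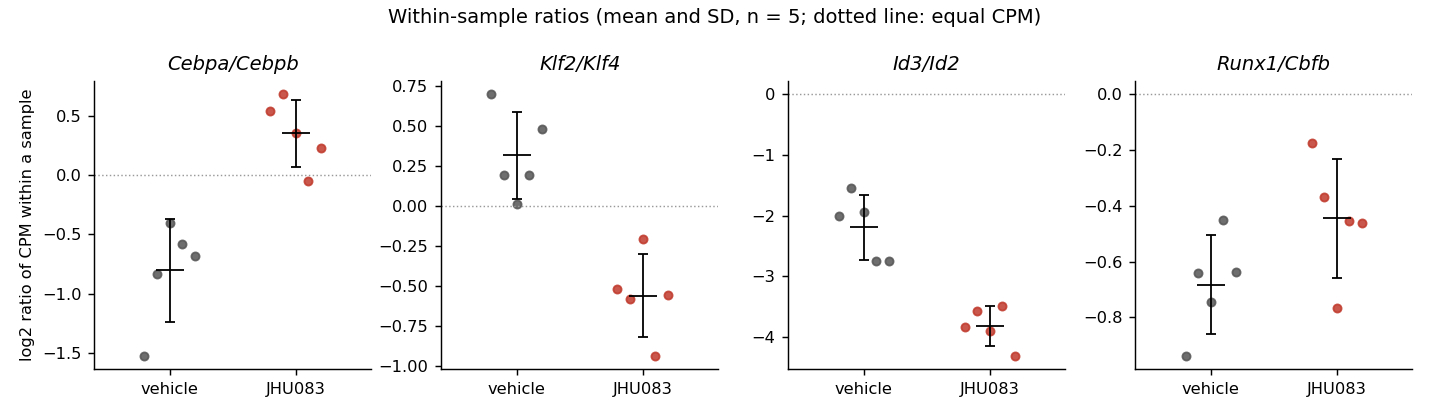
Log2 ratio of the CPM of 2 genes within each sample, with the mean and SD of 5 samples; the axes differ between panels. The groups do not overlap for Cebpa/Cebpb, Klf2/Klf4 and Id3/Id2, and overlap for Runx1/Cbfb.

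Of 7 C/EBP family genes tested, 3 were higher and the other 4 did not pass, with a median log2 fold change of 0.20. Cebpg, a partner without an activation region, whose locus also lists Gm44836, rose from 80.9 ± 7.47 CPM in vehicle to 147 ± 17.3 CPM in JHU083 (SD, n = 5), by 0.86 ± 0.09 (SE, adjusted p = 1.6e-05). Ddit3, the stress-induced member also called CHOP, rose by 0.34 (adjusted p = 0.0224). That call ended with library size scaling (0.25), without vehicle replicate 1 (0.31) and without JHU083 replicate 5 (0.31). It ended within both sets of samples split by the ribosomal loci (0.45 and 0.25). Cebpd, an acute phase relative, had 64 ± 8.17 and 71.3 ± 9.96 CPM (SD, n = 5; edgeR adjusted p = 0.279).

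Among 12 genes linked to C/EBP factors, 3 were higher and 5 lower, with a median of -0.27. Chil3 (Ym1), a chitinase-like protein of alternative activation, rose by 2.08, and the receptor genes Il6ra and Csf3r by 0.64 and 0.53 (adjusted p = 0.00374, 0.000136 and 0.000663). Csf3r was counted above among the genes linked to PU.1 and the neutrophil markers as well. Genes of inflammatory activation were among those that fell: Nos2 fell by 1.68, Lcn2 by 1.49 and Il6 by 0.80 on the log2 scale (adjusted p = 6.34e-06, 0.000168 and 0.00507). Nos2 went from 36.7 ± 5.25 CPM in vehicle to 11.4 ± 2.75 CPM in JHU083 (SD, n = 5). The other 4 of the 12 genes were Arg1 (0.26), Il10 (-0.49), Ptgs2 (-0.11) and Il13ra1 (-0.12). They did not pass in edgeR (adjusted p = 0.22, 0.195, 0.693 and 0.293). Chil3 (1.40) and Il6 (-0.81) did not pass within the samples at 0 for the ribosomal loci, nor did Il6 (-0.76) within the others.

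Maf lies on the minus strand of chromosome 8 (115682942 to 115707794; XLOC_040546). It stood at 267, 256, 298, 326 and 288 CPM in vehicle and at 306, 454, 348, 377 and 417 CPM in JHU083. JHU083 replicates 2 to 5 exceeded every vehicle sample, and replicate 1 lay inside the vehicle range. Maf rose 1.32-fold, by 0.41 ± 0.10 on the log2 scale (SE, edgeR adjusted p = 0.00727). Within the samples at 0 for the ribosomal loci the value was 0.18 (adjusted p = 0.457), and within the others 0.55 (adjusted p = 0.012). Gm15655, an antisense gene that overlaps Maf, had 7.33 and 11 CPM and rose by 0.59 (adjusted p = 0.024).

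The small MAF genes Maff and Mafk rose by 0.51 and 0.50 on the log2 scale (edgeR adjusted p = 0.0254 and 0.00215). The call of Maff ended with library size scaling (0.42) and without vehicle replicate 1 (0.44), vehicle replicate 5 (0.47), JHU083 replicate 1 (0.40) or JHU083 replicate 4 (0.45). Among 14 genes linked to MAF factors, 5 were higher and 9 did not pass, with a median of 0.14. Mertk and Gas6, a receptor and a bridging ligand for dying cells, rose by 0.97 and 0.74 (adjusted p = 4.81e-06 and 0.000138), and the mannose receptor gene Mrc1 by 0.78 (adjusted p = 0.00754). Mafk (0.43) and Mrc1 (0.48) did not pass within the samples at 0 for the ribosomal loci, and within the others Maff (0.49) did not. The complement gene C1qa had 4921 ± 674 and 5462 ± 883 CPM (SD, n = 5; edgeR adjusted p = 0.404).

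Klf4 had the largest fold change of the 8 genes. It has 5 exons on the minus strand of chromosome 4 (55527143 to 55532466; XLOC_026628). It stood at 61.2, 101, 120.4, 90.7 and 68 CPM in vehicle and at 199.7, 271, 177, 296 and 259.7 CPM in JHU083. The lowest JHU083 sample was above the highest vehicle sample. The rise was 2.73-fold, or 1.45 ± 0.18 on the log2 scale (SE, edgeR adjusted p = 4.73e-05), and ranked 101 among 12500 loci when ordered from the largest rise, with falls placed last. The value was 1.13 within the samples at 0 for the ribosomal loci and 1.59 within the others, passing in both.

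Klf2, with 3 exons on the plus strand of chromosome 8 (72319033 to 72321656; XLOC_039040), rose less. It stood at 99.6, 115, 122, 104 and 95.3 CPM in vehicle and at 139.5, 181, 154, 155 and 177 CPM in JHU083, again without overlap. The rise was 1.51-fold, or 0.59 ± 0.09 on the log2 scale (SE, edgeR adjusted p = 0.000255), with 0.49 within the samples at 0 for the ribosomal loci and 0.62 within the others. Inside each library Klf4 gained on Klf2: the log2 ratio of Klf2 to Klf4 went from 0.32 ± 0.27 to -0.56 ± 0.26 (SD, n = 5), a difference of -0.88 (exact permutation p = 0.00794, adjusted p = 0.0132).

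Of 11 KLF genes tested, 7 were higher and 1 was lower, with a median log2 fold change of 0.50. Klf9, a glucocorticoid-responsive factor, rose from 8.97 ± 2.19 CPM in vehicle to 25.9 ± 8.33 CPM in JHU083 (SD, n = 5), by 1.53 ± 0.22 (SE, edgeR adjusted p = 0.000167). Klf11 and Klf6 rose by 0.73 and 0.51 (adjusted p = 0.00102 and 0.00118), and Klf10 and Klf3 by 0.50 and 0.45 (adjusted p = 0.000329 and 0.00971). Klf5, an epithelial factor, fell by 2.06 (adjusted p = 0.00281), as did the tumour epithelial markers given above, of cells that the sort would remove; their part in its fall was not tested. Of 9 genes linked to KLF2 and KLF4, 4 were higher and 5 did not pass, with a median of 0.50. Arg1 (0.26) and Pparg (0.50) were among those that did not pass (edgeR adjusted p = 0.22 and 0.172). Retnla, an alternative activation gene, rose by 2.90, the sphingosine phosphate receptor gene S1pr1 by 1.41 and the thrombomodulin gene Thbd by 0.78 (adjusted p = 7.52e-06, 6.18e-05 and 0.00134). Of the genes named here that passed over all samples, Klf11 (0.37), Klf6 (0.31), Klf3 (0.32) and Klf5 (-1.49) did not pass within the samples at 0 for the ribosomal loci.

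Genes of the KLF family can also respond to enzymatic dissociation of tissue. Of 15 genes listed for that response, 8 were higher and 1 was lower, with a median of 0.32. Dusp1 rose by 0.81, Fos by 0.59 and Egr1 by 0.49 (adjusted p = 1.58e-05, 0.000154 and 0.00571); Egr1 (0.32) did not pass within the samples at 0 for the ribosomal loci. The list summed to 20798 to 23737 CPM in vehicle and 23409.7 to 31111 CPM in JHU083, and its part in the Klf2 and Klf4 results was not tested. Endothelial cells express both KLF genes as well, although a sort for CD45, CD11b and F4/80 would remove them. The endothelial marker sum was lower in every JHU083 sample than in any vehicle sample, mostly through Pecam1, which averaged 151 ± 32.5 CPM without and 52.5 ± 20.2 CPM with JHU083 (SD, n = 5). Of the 5 endothelial markers tested, Pecam1 (-1.52) and Egfl7 (-1.17; a locus that lists other genes too) were lower, Tie1 (0.56) was higher, and Cdh5 and Kdr did not pass; Egfl7 (-0.48) and Tie1 (0.63) did not pass within the samples at 0 for the ribosomal loci, nor did Tie1 (0.46) within the others. Cldn5, Tek, Robo4 and Emcn were under 1 CPM in all 10 samples.

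Promoter windows of Cebpa, Klf4 and Klf2, the lineage factors that rose without overlap, are shown because KLF factors bind CACCC-like sequence. The windows differ in how many matches they hold to CCNCNCCC, a looser pattern that also takes in stretches without CACCC. They are the bases before the RefSeq start (GRCm38.p6) that lie outside every GENCODE exon: chr7:35119043-35119292 (plus strand) for Cebpa, chr4:55532476-55532725 (minus strand) for Klf4 and chr8:72318812-72319032 (plus strand) for Klf2. Capitals mark CCNCNCCC on either strand, and in Klf2 also a MEF2 type site, CTA and TAG with 4 bases between them.
Cebpa: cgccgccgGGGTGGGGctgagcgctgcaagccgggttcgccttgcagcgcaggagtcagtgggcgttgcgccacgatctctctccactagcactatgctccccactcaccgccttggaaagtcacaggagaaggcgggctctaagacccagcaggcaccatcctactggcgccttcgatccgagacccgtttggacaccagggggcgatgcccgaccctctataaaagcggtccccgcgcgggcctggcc
Klf4: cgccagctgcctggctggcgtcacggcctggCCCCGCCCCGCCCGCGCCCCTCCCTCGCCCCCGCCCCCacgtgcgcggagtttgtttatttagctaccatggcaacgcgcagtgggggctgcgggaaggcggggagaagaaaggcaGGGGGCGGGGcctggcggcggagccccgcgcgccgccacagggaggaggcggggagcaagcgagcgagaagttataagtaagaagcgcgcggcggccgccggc
Klf2: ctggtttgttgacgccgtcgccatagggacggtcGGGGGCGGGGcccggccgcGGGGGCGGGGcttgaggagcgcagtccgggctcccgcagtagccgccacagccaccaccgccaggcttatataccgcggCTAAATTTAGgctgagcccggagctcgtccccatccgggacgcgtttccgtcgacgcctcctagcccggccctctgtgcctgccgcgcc
Klf4 holds 9 matches to CCNCNCCC, Klf2 holds 4 and Cebpa 1. Such matches were not limited to genes that rose: the window of Cebpb, which did not pass, holds 6 and is 81.6% G or C, and the 2 windows of Runx1 hold 3 and 1. Of the matches in Klf4, 7 start between 219 and 189 bases before the RefSeq start and overlap each other in a row. The matches in Klf4 and Klf2 do not contain CACCC on either strand, while that in Cebpa (GGGTGGGG) does. A match to CCNCNCCC occurs in 45.5% of 27025 mouse promoter windows of 250 bases, and in 40.8% over the 221 bases taken for Klf2. The motif is itself made mostly of C, and the 3 windows are 74% (Klf4), 71.5% (Klf2) and 66.4% (Cebpa) G or C, against a median of 52.0% over all windows. The MEF2 type site, 118 bases before the RefSeq start of Klf2, has a match in 2.88% of windows of that length. The MEF2 genes Mef2a and Mef2c rose by 0.73 and 0.69 (adjusted p = 0.000856 and 0.000174), and Mef2a (0.50) did not pass within the samples at 0 for the ribosomal loci. Mef2d, the third MEF2 gene of the lists, averaged 89.3 ± 8.99 CPM without and 88.8 ± 8.53 CPM with JHU083 (SD, n = 5; edgeR adjusted p = 0.955). Searches on both strands for TTGCNNAA (C/EBP), GAGGAAGT (PU.1), TGTGGT (RUNX), CAGGTG (E proteins), TGACGTCA (CREB), TGANTCA (AP-1), TGCTGAC (MAF) and the interferon-stimulated response element found no match in these 3 windows. The matches describe letters in a window and not binding.

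Id3 was the gene that fell. It has 3 exons on the plus strand of chromosome 4 (136143497 to 136145755; XLOC_025951). It stood at 24.9, 36.5, 30.4, 18.2 and 17.3 CPM in vehicle and at 15.3, 10.1, 10.9, 15.8 and 9.17 CPM in JHU083, from 140 to 479 fragments a sample. The groups did not overlap, but the gap in CPM was narrow, with vehicle replicate 5 next to JHU083 replicate 4. In FPKM they did overlap, with 15.8 the lowest vehicle value and 16.1 the highest in JHU083. Id3 fell to 0.48 of the vehicle level, by 1.06 ± 0.21 on the log2 scale (SE, edgeR adjusted p = 0.00166). Over all tested loci 4.84% passed the test and fell by at least 1. The value of Id3 was -0.87 (adjusted p = 0.135) within the samples at 0 for the ribosomal loci and -1.26 (adjusted p = 0.00244) within the others. Fibroblasts and epithelial cells can express Id3, although the sort for CD45, CD11b and F4/80 would remove both. Tumour epithelial marker sums did not overlap between the groups either, so a change in those cells cannot be told apart from one in macrophages.

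Relatives of Id3 moved both ways: of 6 ID and E protein genes tested, 2 were higher and 3 lower, with a median of -0.10. Id1 fell from 4.38 ± 0.995 CPM in vehicle to 2.31 ± 0.596 CPM in JHU083 (SD, n = 5), by 0.92 ± 0.23 (SE, edgeR adjusted p = 0.00611). Id2 rose from 113 ± 8.95 CPM in vehicle to 173 ± 35.9 CPM in JHU083 (SD, n = 5), by 0.62 ± 0.12 (SE, edgeR adjusted p = 0.00164). The log2 ratio of Id3 to Id2 went from -2.19 ± 0.53 to -3.82 ± 0.32 (SD, n = 5), a difference of -1.62 (exact permutation p = 0.00794, adjusted p = 0.0132). Of the E proteins that ID factors hold, Tcf3 fell by 0.44 and Tcf12 rose by 0.53 (adjusted p = 0.000746 and 0.00582), and Tcf4 at 0.23 did not pass (adjusted p = 0.0797) except without JHU083 replicate 3 (0.30) and with quality weights (0.25). Id1 (-1.05), Tcf3 (-0.37) and Tcf12 (0.29) did not pass within the samples at 0 for the ribosomal loci, nor did Id1 (-0.73) within the others.

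Id1 and Id3 are known targets of bone morphogenetic protein signals. Of 13 genes listed for that pathway and for TGF-beta, Id1 and Id2 included, 5 were higher and 2 lower, with a median of 0.16. The receptor gene Tgfbr1 rose by 0.84 (adjusted p = 0.000115). Bmpr1a, a bone morphogenetic protein receptor gene, fell by 1.07 (adjusted p = 0.0267). That call ended without vehicle replicate 2 (-0.88), vehicle replicate 3 (-0.93) or JHU083 replicate 5 (-0.92). It also ended within the samples at 0 for the ribosomal loci (-1.12).

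Among 8 interferon regulatory factors tested, 1 was higher and 2 were lower, with a median of -0.09. Irf4, a factor of alternative activation, rose from 8.91 ± 2.52 CPM in vehicle to 19.5 ± 6.01 CPM in JHU083 (SD, n = 5), by 1.13 ± 0.22 (SE, edgeR adjusted p = 0.00123). Irf1 and Irf7, which interferons induce, fell by 0.93 and 0.94 (adjusted p = 1.58e-05 and 8.85e-05). Irf5, known from inflammatory macrophages, had 182 ± 30.2 and 173 ± 18.9 CPM (SD, n = 5; edgeR adjusted p = 0.645). Of 9 genes linked to IRF8, 2 were higher and the other 7 did not pass, with a median of 0.16: Cybb, a subunit of the phagocyte oxidase, rose by 0.35 and the chemokine gene Ccl5 by 0.51 (adjusted p = 0.00486 and 0.0494). The call of Ccl5 ended with library size (0.43), upper quartile (0.48) and DESeq2 scaling (0.50), in unweighted limma-voom (0.47) and with a filter of 1 CPM in every sample of a group (0.50). It also ended without vehicle replicate 1, 2, 3 or 4 or JHU083 replicate 1, 4 or 5, at 0.36 to 0.52. Irf4 (0.72), Cybb (0.32) and Ccl5 (0.45) did not pass within the samples at 0 for the ribosomal loci, nor did Cybb (0.36) and Ccl5 (0.61) within the others.

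Of 42 further regulators of myeloid cells, 36 were tested, 18 were higher and 2 lower, with a median of 0.30. Lyl1, a basic helix-loop-helix factor of early blood cells, rose from 29.6 ± 4.32 CPM in vehicle to 66.2 ± 9.91 CPM in JHU083 (SD, n = 5), by 1.16 ± 0.12 (SE, edgeR adjusted p = 1.34e-05). Bhlhe41, linked to self-renewal of resident macrophages, rose by 0.88 and Epas1, which encodes HIF-2 alpha, by 0.74 (adjusted p = 0.000666 and 0.00688), though Epas1 (0.34) did not pass within the samples at 0 for the ribosomal loci. Myc, a growth factor-induced gene, and Batf2, an interferon-induced one, fell by 0.88 and 0.87 (adjusted p = 0.000256 and 0.000185).

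**Figure D5:**
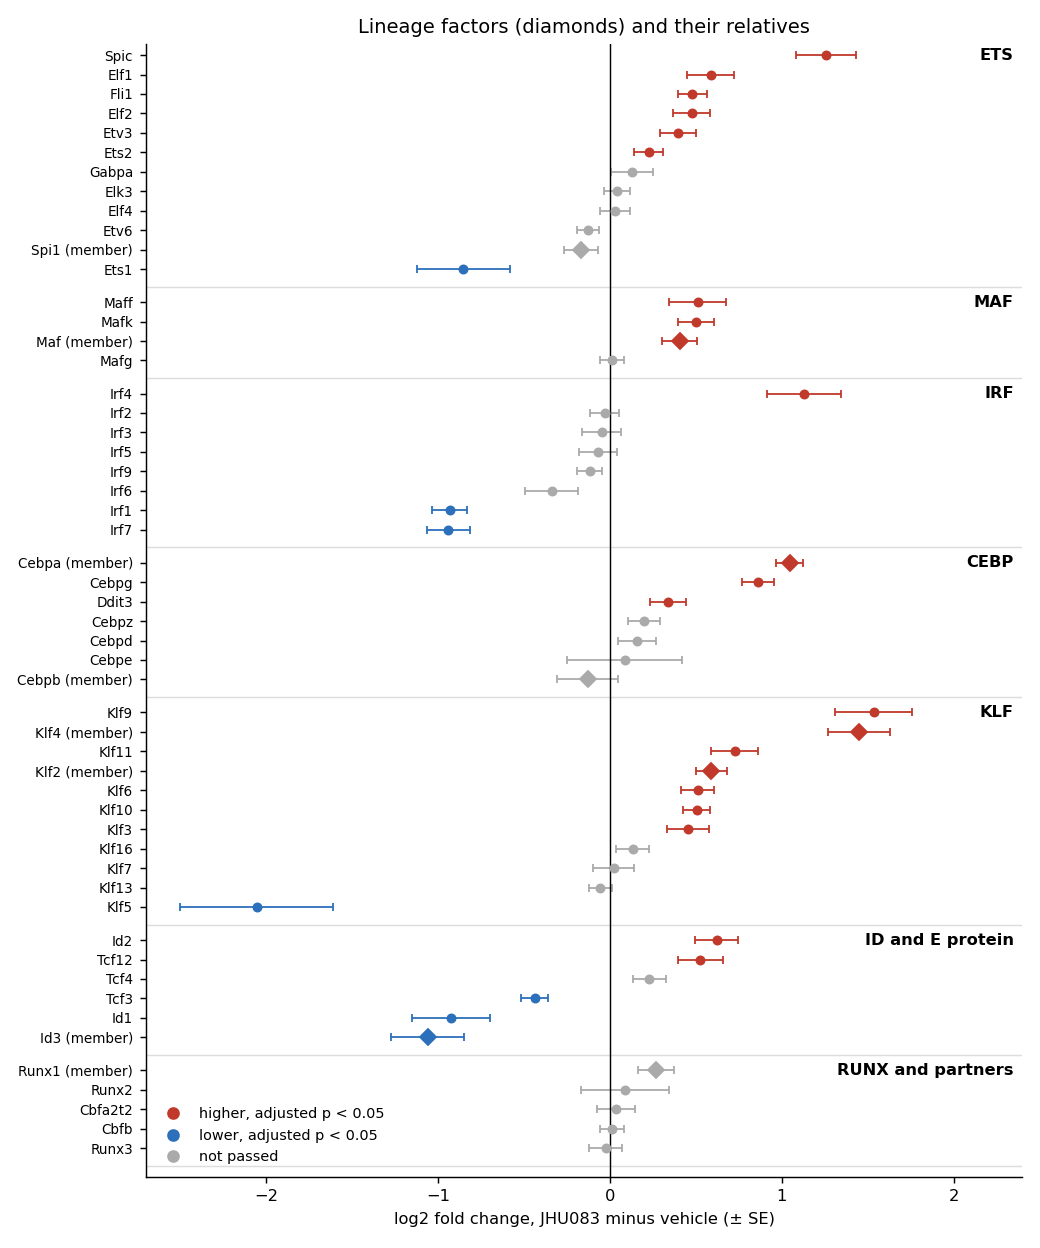
Log2 fold change (JHU083 minus vehicle, ± SE, 5 samples a group) of the 8 lineage factors (diamonds) and of tested relatives (circles), by family; red and blue pass an adjusted p under 0.05 in edgeR. MAF and KLF genes lie mostly to the right, Irf1, Irf7 and Klf5 lie to the left, and the 5 genes of the RUNX list do not pass.

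As a description of how the factors varied within the groups, over 10 samples, log2 CPM after subtracting group means was compared with that of 154 genes of these lists, all from the same libraries with the same scaling. Spi1 was most like C1qa and C1qb (0.98 and 0.98), both complement genes, by Pearson's r. Klf4 was most like Elf1 and Egr1 (0.95 and 0.95), Klf2 most like Elf1 and Cd163 (0.83 and 0.83), and Maf most like Klf11 and Klf9 (0.92 and 0.86). For Id3 the closest were Egr3 and Klf5 (0.91 and 0.85), and for Runx1 Cybb and Tgfbr1 (0.88 and 0.86). For Cebpa they were Lmo2 and Cd68 (0.81 and 0.80), and for Cebpb Klf16 and Itgb7 (0.74 and 0.73). Between the lineage factors, r was 0.75 for Klf2 with Klf4, -0.91 for Spi1 with Klf4, -0.71 for Spi1 with Klf2 and -0.01 for Cebpa with Cebpb.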

How the data were processed

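Polyadenylated RNA of 10 sorted macrophage samples, 5 per treatment, was sequenced after random priming, and no strand-marking step is stated, per the labels' protocols. The submitters' processing notes name bcl2fastq 2.17.1.14, FastQC 0.11.2, TopHat2 2.1.1 and GRCm38; the counting program and annotation are not given in the sources used here. The authors deposited, under a header of raw counts, values that are not whole, here taken for expected counts. From the values alone, they were inferred to be fragments per locus multiplied by a factor for each sample. In each sample at least 99.9% of the low values are whole multiples, within 0.02, of a step of 0.888 to 1.17. Dividing by the step and rounding gave fragment counts. The other deposited column, headed as normalized, was taken as FPKM from its values and used for levels per length.

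The locus without a symbol (0.00132% to 0.00209% of fragments) was left out. Loci were filtered with filterByExpr, scaled with TMM and fitted over all 10 samples in edgeR 4.0.16 under R 4.3.3 with the quasi-likelihood test, a Benjamini-Hochberg adjustment over all tested loci and a threshold of 0.05. The SE equals the size of the log2 fold change over the root of F. CPM rests on TMM-scaled totals; ratios use log2 CPM with a prior count of 2 and an exact two-sided permutation test over 252 splits. The code was tested on simulated data. Positions and exons come from GENCODE M21 by symbol. RefSeq promoter windows (GRCm38.p6) were listed for 6 of the 8 genes; that of Id3 lies within GENCODE exons, which left 5 genes to search.

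The genes followed and all lists were chosen with earlier results of these data known. Genes were named by rule: the 8 genes, their closest relatives, and in each list up to 3 largest rises and 3 largest falls past the threshold with an average log2 CPM of at least 2; other names were chosen after their values were seen. The 2 genes with the highest correlation within groups were named for each of the 8. Without strand, overlapping genes cannot be separated: Gm15655 at Maf, Gm45091 at Cebpa, Tmem189 at Cebpb and Gm26626 at Runx1. Alternatives were other tests (DESeq2 1.42.0, and limma 3.58.1 as voom, plain or weighted by sample quality), other scalings and filters, the deposited values rounded, subsets of loci and samples, each sample left out in turn, and a replicate block. A planned ratio with Irf8 was not run, and 1 of the 5 ratios tested is not reported here.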

Additional observations from a re-analysis of the deposited data

How the results depend on the processing

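Cebpa, Klf2 and Klf4 passed in the same direction in all alternatives run. With 1 sample left out, log2 fold changes ranged from 1.00 to 1.08 for Cebpa, 0.55 to 0.64 for Klf2, 1.34 to 1.59 for Klf4, 0.33 to 0.47 for Maf, -1.17 to -0.90 for Id3, -0.25 to -0.12 for Spi1, 0.19 to 0.36 for Runx1 and -0.21 to 0.0628 for Cebpb. In those fits 4 to 5 of the 8 factors were higher and 1 to 2 lower, among 1821 to 2899 higher and 1900 to 2930 lower loci. Within the samples at 0 for Rn18s-rs5 and Gm42418 (3 vehicle, 2 JHU083), 532 loci were higher and 586 lower. Maf (0.18) and Id3 (-0.87) did not pass there, Spi1 changed sign (0.0106), and 0 factors were lower in edgeR, the tool used, with 1 at an unadjusted p under 0.05. Within the other samples 1276 loci were higher and 1542 lower, and Runx1 passed (0.36). With quality weights Spi1 (-0.23) and Runx1 (0.28) passed, so that 2 factors were lower, and Spi1 also passed with library size scaling (-0.25; 2 lower). Runx1 passed with no filter (0.27). The cause was not tested; the subsets hold fewer samples. Over the 8 factors, 181 of 192 comparisons kept direction and side of the threshold. For the other named genes followed through the alternatives 1560 of 1654 did, with 73 calls lost, 2 gained and 19 changes of sign.

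With 1 sample left out, differences in log2 ratio ranged from 0.98 to 1.26 for Cebpa/Cebpb, -0.96 to -0.78 for Klf2/Klf4, -1.76 to -1.46 for Id3/Id2 and 0.17 to 0.32 for Runx1/Cbfb. Sign changes fell on genes that did not pass. Cbfb was -0.0687 with library size, -0.0156 with upper quartile scaling, -0.056 in the samples above 0, and -0.0308 to 0.0563 with 1 sample left out. Irf5 was 0.0583 in the samples at 0 and -0.13 to 0.00053 with 1 sample left out, Runx2 -0.0287 to 0.29, and Runx3 -0.0846 to 0.041, with 0.0107 under quality weights. Mef2d was 0.00746 under quality weights, 0.0888 in the samples above 0 and -0.0447 to 0.0482 with 1 sample left out.

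With the replicate number as a block, Cebpa was 1.04, Klf4 1.47, Klf2 0.59, Maf 0.40 and Id3 -1.03, all passing, and 1612 loci were higher and 1757 lower; Maff (0.48), Ets1 (-0.79) and Aif1 (-0.32) did not pass. Same-numbered samples did not deviate together (mean r = -0.35), and 0 of 10 samples correlated best with their own number, so the numbers give no pairing. Differences at loci under 0.269 CPM, 3 fragments in the smallest library, were not detectable at these depths. The filter on low counts also left some loci above that level untested, such as Klf8 (0.47 CPM in vehicle and 0.75 CPM in JHU083).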
